A study of Mus musculus with 75 samples.

Results

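In mouse skin fibroblasts grown through serial passages, 18250 promoter regions carried an ATAC-seq peak in every sample. To find them, overlapping peaks on chromosomes 1 to 19 and X were merged over all 13 ATAC-seq samples into 306843 union regions. A region was counted as present in a sample where it overlapped a peak of that sample. Of the union regions, 94647 were present in all 13 samples, and 18250 of these lay within 1000 bases of a RefSeq transcription start site on the GRCm38 (mm10) assembly. They were 5.95% of the union regions, 19.3% of the regions present in every sample and 59.6% of the 30646 regions near a start site. The other 76397 regions present in every sample are called distal here. The regions were chosen by the presence of a peak in each sample and the distance to a start site, so a promoter that lost its peak at any passage is outside the set by construction.

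The study followed replicative senescence, the loss of proliferation that cells reach after repeated division, in untreated bulk cultures of skin fibroblasts from C57BL/6 female mice that were 2 months old. Cells were collected at 4 passages, named P1, P3, P5 and P7 by their number. ATAC-seq, in which a transposase cuts the DNA of open chromatin, gave 4 samples at P1 and 3 at each later passage, and RNA-seq gave 4 libraries at each passage with 13430229 to 15725823 counts per library. The study calls its methylation samples independent series, but for the ATAC-seq and RNA-seq replicates no source used here states separate animals or cultures, so p-values measure only the spread between these samples, which may be technical. The summed RNA of 16 fibroblast genes was 8496 to 8975 CPM (counts scaled to the library total) at P1 and 8196 to 9254 CPM at P7, and 1 of the 16 had no read. The summed RNA of 16 macrophage genes was 418 to 633 CPM at P1, 56.9 to 77.8 CPM at P3 and 35.7 to 59.5 CPM at P7. That of 12 keratinocyte genes was 98.3 to 576, 5.24 to 7.58 and 12.6 to 17.1 CPM at these passages, and that of 12 skeletal muscle genes was 190 to 302, 58.0 to 63.8 and 40.9 to 104 CPM. In bulk samples, fewer cells of a type and less RNA or less open chromatin per cell cannot be told apart. The part of these other cells in the differences from P1 was not tested, and differences are also given from P3, where these 3 sums were already far below those at P1.

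A promoter is the stretch of DNA around a transcription start site where RNA polymerase II and the general transcription factors assemble. Most promoters of genes used in many tissues lie in CpG islands, stretches rich in the dinucleotide CG that stay free of nucleosomes and of DNA methylation, whereas tissue-specific promoters often have few CG and a TATA box. An ATAC-seq peak at a promoter marks DNA that the transposase can reach, and it can be present whether or not the gene is transcribed.

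The sequences of 7 start sites show the range of promoters in the set. Each gives the 200 bases before the start, read 5′ to 3′ on the strand of the gene from the RefSeq GRCm38.p6 genome, with every CG in capitals. Mcm6, a subunit of the replicative helicase, Tmem132c, a membrane protein gene, and Atp10a, a phospholipid flippase, had regions that weakened with passage, and the region of each covers the start shown.
Mcm6 (chr1:128359706-128359905, minus strand): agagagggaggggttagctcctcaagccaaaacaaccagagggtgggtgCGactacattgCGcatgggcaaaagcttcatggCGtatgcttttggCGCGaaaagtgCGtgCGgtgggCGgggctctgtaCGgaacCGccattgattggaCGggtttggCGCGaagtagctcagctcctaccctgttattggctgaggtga
Tmem132c (chr5:127241626-127241825, plus strand): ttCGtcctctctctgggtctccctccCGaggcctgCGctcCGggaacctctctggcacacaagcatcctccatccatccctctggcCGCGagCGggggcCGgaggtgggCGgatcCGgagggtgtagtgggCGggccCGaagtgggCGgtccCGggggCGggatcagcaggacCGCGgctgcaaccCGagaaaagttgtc
Atp10a (chr7:58658002-58658201, plus strand): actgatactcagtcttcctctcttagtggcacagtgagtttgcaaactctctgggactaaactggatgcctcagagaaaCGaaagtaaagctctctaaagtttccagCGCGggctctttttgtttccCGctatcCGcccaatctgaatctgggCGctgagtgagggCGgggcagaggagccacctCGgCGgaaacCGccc
These windows hold 13 CG in Mcm6, 18 in Tmem132c and 10 in Atp10a. Scap, the escort protein of the sterol sensor SREBP, and Map2, a microtubule protein, had regions that strengthened, 641 and 123 bases away from the start shown.
Scap (chr9:110343986-110344185, plus strand): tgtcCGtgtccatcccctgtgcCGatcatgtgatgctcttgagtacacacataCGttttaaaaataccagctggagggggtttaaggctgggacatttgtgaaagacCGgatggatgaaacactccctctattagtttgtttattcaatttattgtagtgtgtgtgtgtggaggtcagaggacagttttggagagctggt
Map2 (chr1:66301923-66302122, plus strand): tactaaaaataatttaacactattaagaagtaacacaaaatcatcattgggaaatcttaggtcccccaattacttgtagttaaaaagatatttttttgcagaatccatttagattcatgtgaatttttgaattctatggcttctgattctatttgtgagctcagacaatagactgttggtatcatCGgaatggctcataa
They hold 4 CG in Scap and 1 in Map2. The starts of the 2 products of Cdkn2a, which were chosen for display after their values were seen, had regions that moved in opposite directions. The upstream start gives p19ARF, which stabilises p53, and the downstream start gives p16INK4a, which inhibits the cyclin D kinases.
Cdkn2a, p19ARF start (chr4:89294620-89294819, minus strand): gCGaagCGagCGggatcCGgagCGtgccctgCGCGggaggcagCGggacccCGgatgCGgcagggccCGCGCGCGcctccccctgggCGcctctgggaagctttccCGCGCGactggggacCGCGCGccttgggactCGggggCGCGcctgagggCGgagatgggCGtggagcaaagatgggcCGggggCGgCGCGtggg
Cdkn2a, p16INK4a start (chr4:89282193-89282392, minus strand): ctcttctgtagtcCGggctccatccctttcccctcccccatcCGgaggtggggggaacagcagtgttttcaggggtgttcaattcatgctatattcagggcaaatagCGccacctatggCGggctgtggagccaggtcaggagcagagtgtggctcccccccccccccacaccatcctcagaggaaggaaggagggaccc
The window before the p19ARF start holds 30 CG and that before the p16INK4a start 4.

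Most of the 18250 regions were classical promoters. A start site lay inside 81.6% of them, and the summit of the peak was a median 87.0 bases from the nearest start. A protein-coding start lay within 1000 bases of 15464 regions, 2786 had noncoding starts only, and 2396 (13.1%) lay at a divergent pair of genes. They held a start of 13991 protein-coding genes, 65.0% of the 21521 on these chromosomes. Their median length was 1332 bases, compared with 825 for the distal regions. The 300 bases around the summit held a median of 17 CG and 59.7% G and C, compared with 3 CG and 46.3% in the distal regions.

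Short sequence words were counted on both strands, and a match is a description of the letters, not of a bound factor. None of the words holds another. For the regions, the window ran from 250 bases before to 50 bases after the start nearest to the summit. For all 21521 protein-coding genes, a window of the same size was taken at the outermost 5′ end of the gene. The part of this different choice of start in the shares was not tested. The GC box of SP factors (GGGCGG) was found in 52.4% of the windows of regions and in 40.7% of the windows of genes. The TATA box (TATAAA) was found in 8.89% and 14.3%, the CCAAT box of NF-Y (CCAAT) in 37.3% and 38.8%, and the E2F words (TTTCCCGC or TTTGGCGC) in 2.27% and 1.82%. Around the summits, the promoter regions are set beside the distal regions. The AP-1 word (TGAGTCA) was found within 150 bases of the summit in 11.9% of the promoter regions and 33.3% of the distal regions, the TEAD word (GGAATG) in 15.8% and 28.6%, and the GC box in 51.6% and 7.09%.

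At the edge of the set, among regions near a start, 1102 had a peak in 12 of the 13 samples, and of these 305 lacked it only in P3 replicate 2 and 157 only in P3 replicate 1, the samples with the fewest regions (135733 and 142235). The median best -log10 p of the 18250 regions was 85.2, and that of the 1102 regions was 13.1. Of the regions with a start inside, 79.4% were present in every sample, compared with 28.0% of those 1 to 250 bases from a start, 28.0% of those 751 to 1000 bases away and 28.3% of those 1001 to 1250 bases away, just outside the limit.

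Among the regions present in every sample, the median rank of the promoter regions was lower at P5 and P7 (the plot of medians by sample). Strength is given as a percentile, where each of the 94647 regions present in every sample was ranked within the sample by its best -log10 p, and 100 is the strongest. The median percentile of the promoter regions was 72.5, 72.3, 71.5 and 73.4 in the P1 samples and 72.8, 71.2 and 72.6 at P3. The P5 samples had 67.3, 66.0 and 69.4, and the P7 samples had 64.4, 60.9 and 64.0. The P1 and P3 samples overlapped, and every P5 sample was below them and above every P7 sample. The percentiles are relative, so a fall of promoters is a rise of distal regions, whose median was 45 to 45.4 at P1 and 47.2 to 47.8 at P7. Ranked among all regions with a peak in the sample, the promoter median was 83.6 to 84.5 at P1 and 79.9 to 82.09 at P3. On that scale it was 82.8 to 83.7 at P5 and 82.12 to 83.1 at P7, so P3 was the lowest passage. On the authors' own scale, the median -log10 p of the promoter regions gave no such order (86.3 to 101 at P1, 41.5 to 74.8 at P3, 70.3 to 121 at P5 and 84.1 to 91.7 at P7), while that of the distal regions was 39.1 to 43.6 at P1, 19.3 to 31.7 at P3, 37.1 to 73.7 at P5 and 54.1 to 63.9 at P7. The median fold enrichment of the promoter regions was higher in every P7 sample (9.31 to 10.7) than in every P1 sample (8.54 to 8.96), and that of the distal regions was 8.67 to 10.4 at P7 and 6.90 to 7.11 at P1. The number of regions with a peak was 159951 to 173973 at P1 and 190680 to 209726 at P7, and the read depth behind the peaks is unknown.

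**Figure D1:**
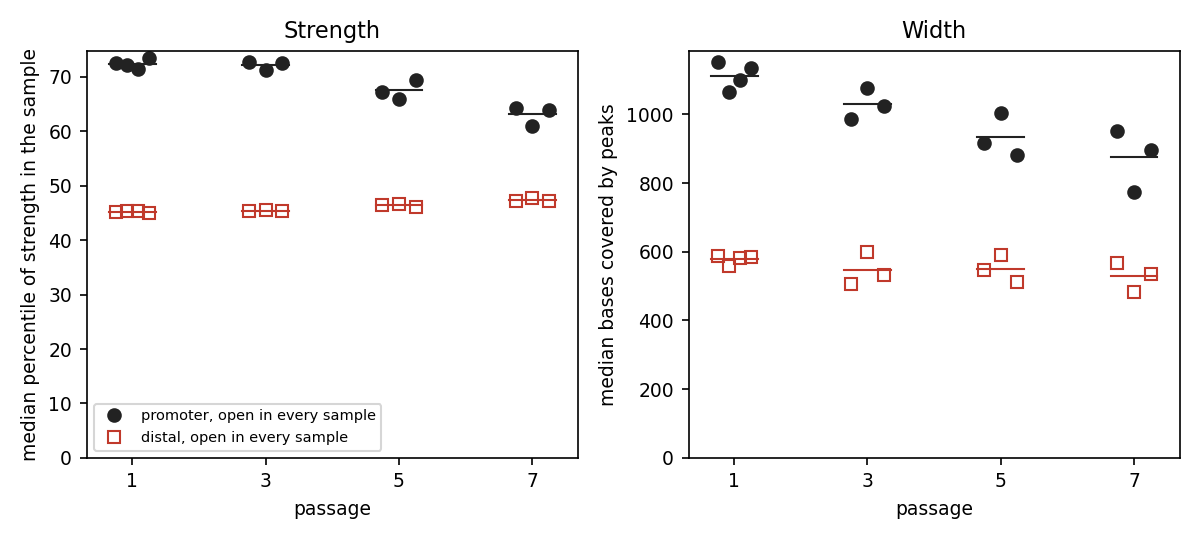
Median within-sample percentile of strength (left) and median number of bases covered by peaks (right) of the 18250 promoter regions (black) and the 76397 distal regions (red) in each of the 13 ATAC-seq samples, by passage; lines are passage means. The promoter percentile lay at 71.2 to 73.4 at P1 and P3 and at 60.9 to 64.4 at P7, and the covered bases went from 1066 to 1152 at P1 to 774 to 953 at P7.

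Region by region, strength was compared with limma over all 94647 regions, and a call needed a change of at least 10 percentile points with an adjusted p below 0.05. Between P1 and P7, 5316 promoter regions (29.1%) were lower and 922 (5.05%) were higher, beside 17.2% lower and 15.9% higher among all regions tested. The median change was -5.22 points for promoter regions and 0.75 points for distal regions. Between P3 and P7, 3905 promoter regions (21.4%) were lower and 367 (2.01%) higher, beside 10.2% and 9.2% of all regions, and without P7 replicate 2 these counts were 2512 and 242. Fitted on these 2 passages alone, 2469 were lower. The step from P1 to P3 had 905 lower and 850 higher promoter regions, 4.96% and 4.66%, beside 9.46% and 9.79% of all regions. The step from P3 to P5 had 875 lower (4.79%) and 135 higher (0.74%), beside 2.84% and 3.42%, and the step from P5 to P7 had 624 lower (3.42%) and 82 higher (0.449%), beside 2.11% and 1.79%. The direction depended on what the rank was taken within. With percentiles among all regions that had a peak in the sample, whose number was larger at P7, 2188 promoter regions were lower and 1076 higher between P1 and P7, beside 6.56% and 18.9% of all 94647 regions. On that scale, 630 (3.45%) were lower and 1340 (7.34%) higher between P3 and P7, beside 1.61% and 24.6%.

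Peaks at promoters were also narrower at P7. The width of a region is the number of its bases covered by peaks of the sample. The median width of the promoter regions was 1152, 1066, 1099 and 1134 bases in the P1 samples and 953, 774 and 897 bases at P7. It was 986 to 1076 bases at P3 and 882 to 1003 bases at P5, and P7 replicate 2 was the lowest of all samples. The median width of the distal regions was 560 to 588 bases at P1 and 483 to 567 bases at P7, so part of the narrowing was shared by them. Relative to the median width of all shared regions in the same sample, limma called 1778 promoter regions (9.74%) narrower and 466 (2.55%) wider between P1 and P7 at a fold of at least 1.2, beside 5.02% and 7.1% of all regions. The median of this relative change was -0.055 in log2 for promoter regions and 0.088 for distal regions. Without centring on the sample median, the counts were 4069 narrower and 152 wider. The centred counts rested partly on single samples, with 910 narrower and 179 wider without P7 replicate 2, and 1130 and 278 without P1 replicate 1. The count of wider regions was also 291 without P1 replicate 3 and 215 without P7 replicate 3. Between P3 and P7, 688 (3.77%) were narrower and 120 (0.658%) wider, beside 1.56% and 2.18%. Fitted on these 2 passages alone the counts were 51 and 13, and without P7 replicate 2 they were 260 and 30. The count of narrower regions was 396 without P3 replicate 1, 370 without P3 replicate 3 and 402 without P7 replicate 3, and that of wider regions was 77 without P3 replicate 2, 75 without P7 replicate 1 and 34 without P7 replicate 3. The single steps had 209 narrower and 136 wider promoter regions from P1 to P3 (beside 2.17% and 1.88% of all regions), 177 and 30 from P3 to P5 (beside 0.39% and 0.567%) and 17 and 1 from P5 to P7 (beside 0.0433% and 0.00317%).

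The change in strength differed by CG content (the plot of change by CpG). Promoter regions with 0 to 2 CG in the 300 bases around the summit had a median change of -0.19 points between P1 and P7, with 17.4% called lower and 17.2% called higher. Those with 6 to 10 CG had a median of -4.24 points, and those with 26 or more had -8.57 points, with 37.8% lower and 0.952% higher. The order was not even, since the classes of 11 to 15, 16 to 20 and 21 to 25 CG had medians of -6.43, -4.87 and -5.23 points. Distal regions had the same gradient, from 1.94 points at 0 to 2 CG to -7.75 points in the 323 regions with 26 or more CG, of which 33.4% were lower. In the classes from 16 CG upwards, the promoter and distal medians were within 2 points of each other. Between P3 and P7 the promoter medians ranged from -0.40 points at 0 to 2 CG to -7.87 points at 26 or more.

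**Figure D2:**
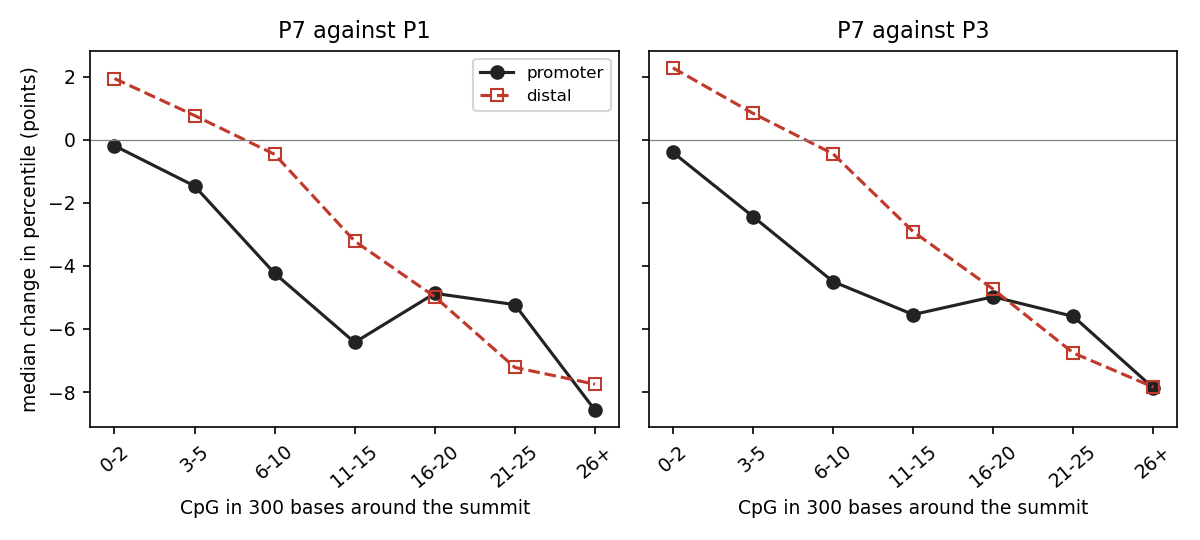
Median change in percentile of strength (points) between P1 and P7 (left) and between P3 and P7 (right) by the number of CG dinucleotides in the 300 bases around the summit, for the promoter regions (black) and the distal regions (red) present in every sample. In the left panel the line of the promoters goes from -0.19 to -8.57 points with a turn upwards from 11 to 15 CG (-6.43) to 16 to 20 CG (-4.87), and that of the distal regions from 1.94 to -7.75 points.

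It also differed by level. Promoter regions of mean percentile 40 to 60 had a median change of -13.0 points and 40% called lower between P1 and P7, compared with 1.81 points and 16% for distal regions of the same level. The strongest promoter regions, of mean percentile 80 to 100, had -1.38 points and 11.8% lower, and near 100 a percentile has little room to change by 10 points upwards. Within the level of 40 to 60, the 863 promoter regions with under 6 CG had a median of -0.94 points and the 1385 with 16 or more had -20.2 points, and the distal regions of these classes had 3.06 and -15.5 points. Regions with a start inside had a median of -6.08 points, those up to 500 bases away -2.07 points and those farther away -1.18 points. Regions with noncoding starts only had -1.59 points.

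The 922 regions that were higher at P7 than at P1 differed in build from the 5316 that were lower. A start lay inside 52.8% of the higher and 89.2% of the lower regions, and the start of a curated transcript inside 32.4% and 81.0%. The summit of the higher regions was a median 442.5 bases from the nearest start, and that of the lower regions 62 bases. The higher regions had a median of 4 CG around the summit and the lower regions 21. Near their starts the GC box was found in 18.9% of the higher and 59.1% of the lower regions, the AP-1 word in 9.98% and 3.91%, the TEAD word in 18.5% and 12.7% and the TATA box in 16.4% and 7.83%. Among the 12012 regions that were neither, these shares were 52.1%, 5.30%, 13.6% and 8.78%.

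The largest falls named single genes whose start lay inside the region. These starts were curated except that of Kcns3, which was given only by a computed transcript model. The region at Kcns3 (chr12:11149186-11150914), a modifier subunit of potassium channels, was at percentiles 84.7, 81.6, 90.7 and 84.5 at P1, 56.3, 62.2 and 45.7 at P3, 45, 40.1 and 29.9 in the P5 samples, and 9.55, 1.91 and 12.1 at P7. Each passage lay wholly below the one before it, and the change from P1 to P7 was -77.5 points (SE 6.33, limma adjusted p = 9.0e-07). The region at Tmem132c (chr5:127241201-127243065) went from 77.9 to 85.7 at P1 to 5.51 to 12.7 at P7, and its RNA from 10.1 ± 1.61 to 0.433 ± 0.404 CPM (SD, n = 4, log2 fold change -4.51, edgeR adjusted p = 3.3e-09). The region at Atp10a (chr7:58657817-58658907) went from 72.7 to 76.1 at P1 to 35.5 to 48.1 at P3 and 4.53 to 6.56 at P7, a change of -69.1 points (SE 6.06, limma adjusted p = 1.4e-06), and was narrower, from 1032 to 1058 bases to 418 to 552. Its RNA was 23.8 ± 2.19 CPM at P1 and 23.3 ± 8.49 CPM at P7 (SD, n = 4), which edgeR did not call different (adjusted p = 0.90). The region at Lpl, lipoprotein lipase, went from 75.9 to 98.0 to 10.9 to 30.8, while its RNA went from 387 ± 55.2 to 192 ± 83.3 CPM (log2 fold change -1.01, edgeR adjusted p = 0.00165). The other large falls were at Grm3, a glutamate receptor (-65.5 points), and Jakmip2 (-64.9 points).

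The largest rises were mostly beside starts rather than on them. Of the 6, those at Scap, Sugp2, Map2, Tesk2 and Tmem266 lay 123 to 991 bases from a start given only by a computed transcript model, and that at Cpa4, a carboxypeptidase, covered a curated start. The region at Scap (chr9:110344827-110345732) was at 8.35, 10.4, 0.139 and 4.96 at P1, 38.0, 65.0 and 68.5 at P3, 65.9, 52.6 and 60.6 in the P5 samples, and 71.9, 78.8 and 67.1 at P7. Most of this change lay between P1 and P3, the change from P1 to P7 was 66.6 points (SE 7.40, limma adjusted p = 8.0e-06), and that from P3 to P7 was 15.4 points (limma adjusted p = 0.17). The RNA of Scap was 98.5 ± 2.55 CPM at P1 and 138 ± 10.6 CPM at P7 (SD, n = 4, log2 fold change 0.49, edgeR adjusted p = 7.5e-05), under the fold of 2 that a call needed. The region at Map2 (chr1:66302246-66302934) rose from 17.6 to 23.0 at P1 to 43.9 to 55.3 at P3 and 73.3 to 91.4 at P7 (63.3 points, limma adjusted p = 4.1e-06), and that at Cpa4 from 11.5 to 37.5 at P1 to 75.4 to 80.6 at P3 and 85.1 to 93.2 at P7 (61.9 points, limma adjusted p = 1.7e-06).

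The largest changes in width were at regions that were weak at P7 or at P1. The 4 with the greatest narrowing were at percentiles of 7.69 or below at P7, and the 4 with the greatest widening were at 8.84 or below at P1. At Fgf14, a fibroblast growth factor homologue, peaks covered 2267 to 2366 bases at P1, 640 to 1270 at P3 and 233 to 520 at P7, and the percentile at P7 was 0.529 to 2.80. At Cecr2, a chromatin remodelling factor, they covered 1939 to 2050 bases at P1 and 230 to 741 at P7. The others with the strongest narrowing were Dipk1c and Gm2897, with 1513 to 1673 and 1252 to 1534 bases at P1 and 224 to 277 and 222 to 257 bases at P7. Widening was greatest at Tex43, Slc12a8, Nav1 and Fam227a, each on or near a start given only by a computed transcript model. At Nav1, a neuron navigator, peaks covered 251 to 677 bases at P1 and 859 to 979 at P7 (log2 fold change 1.59, SE 0.29, limma adjusted p = 0.0061), while its RNA was 112 ± 12.3 and 104 ± 25 CPM (SD, n = 4). This region lay 152 bases from the start and was 1 of 5 regions of Nav1 in the set, so the RNA of the gene need not come from it.

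At the other end, some regions held the top of the list in all samples. Among those with the highest mean percentile were the regions at Hjurp, the chaperone of the centromeric histone, Zfp869, Narf and Evi5l, and each was at 99.9 or above in every sample. These regions were picked for the highest mean percentile over all passages, so their constant rank was set by that choice. It is not a result on how strength and RNA relate, and their RNA is given as a description. Hjurp RNA went from 3.20 ± 0.866 CPM at P1 to 1.09 ± 0.339 CPM at P7 (SD, n = 4, log2 fold change -1.55, edgeR adjusted p = 0.00013), and Zfp869 RNA was 20.2 ± 2.14 and 19.5 ± 2.70 CPM.

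The RNA of mitosis genes was lower at P7 (the plot of lists). The RNA of all 40 mitosis genes was called lower at P7 than at P1 by edgeR at a fold over 2, with a median log2 fold change of -2.71, beside 13.3% lower and 8.1% higher among all 13442 genes tested. Lists are described by the strongest region of each gene. Of the 40 promoter regions of mitosis genes, 5 were lower and none was higher at an adjusted p under 0.05 and 10 points by limma, the median change was -0.92 points, and the median percentile was 91.9 at P1 and 91.7 at P7. These 12.5% were close to the 11.8% lower among all promoter regions of mean percentile 80 to 100. Of the 40 regions, 7 (17.5%) were narrower, beside 9.74% of all promoter regions. The region at Lmnb1, lamin B1 of the nuclear envelope, was at 79.5, 87.4, 80 and 75.5 at P1, 80.5 to 85.8 at P3, 61.9 to 66.9 for P5 and 50.6, 47.5 and 48.9 at P7, a change of -31.6 points (SE 3.78, limma adjusted p = 1.4e-05). The P5 samples lay wholly between P3 and P7. Lmnb1 RNA was 92.1 ± 1.79 CPM at P1 and 13.8 ± 1.94 CPM at P7 (SD, n = 4, log2 fold change -2.74, edgeR adjusted p = 4.0e-12). The region at Racgap1, a regulator of cytokinesis, was at 57.4, 55.6, 56.2 and 69.8 at P1 and 64.9, 75.7 and 78.2 at P7 (13.1 points, SE 5.36, limma adjusted p = 0.062), with overlapping samples, while its RNA went from 129 ± 6.77 to 24.3 ± 2.68 CPM (log2 fold change -2.41, edgeR adjusted p = 9.5e-12).

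Of the 45 regions of S-phase and DNA replication genes, 12 (26.7%, beside 29.1% of all promoter regions) were lower and none was higher in strength, and the median change was -4.21 points, against -5.22 points for all promoter regions. Of the 45, 14 were narrower, beside 9.74% of all promoter regions. The median percentile of these 45 regions was 91.0 at P1 and 87.2 at P7. Among all promoter regions of mean percentile 80 to 100, 11.8% were lower, 10.7% were narrower and the median change in strength was -1.38 points. The RNA of 38 of the 45 genes was lower, with a median log2 fold change of -1.97. The region at Mcm6 (chr1:128358799-128360295) was at 90.9, 90.8, 90.1 and 90.4 at P1, 85.7, 81.8 and 80 at P3, 68.9, 54.6 and 75.4 in the P5 samples, and 55.5, 59.6 and 45 at P7. The P1, P3 and P7 samples did not overlap, and the change was -37.2 points from P1 (SE 4.37, limma adjusted p = 1.2e-05) and -29.2 points from P3 (limma adjusted p = 0.00063). Its RNA was 142 ± 6.72, 113 ± 5.08, 62.8 ± 16.6 and 26.6 ± 2.41 CPM at the 4 passages (SD, n = 4). The region with the largest fall of the list was at Prim2, the large primase subunit (-39.9 points, limma adjusted p = 0.00019). That with the largest positive value was 842 bases from a start of Pola2, a subunit of DNA polymerase alpha (15.2 points, limma adjusted p = 0.10), whose RNA was lower (log2 fold change -1.52, edgeR adjusted p = 8.8e-11).

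**Figure D3:**
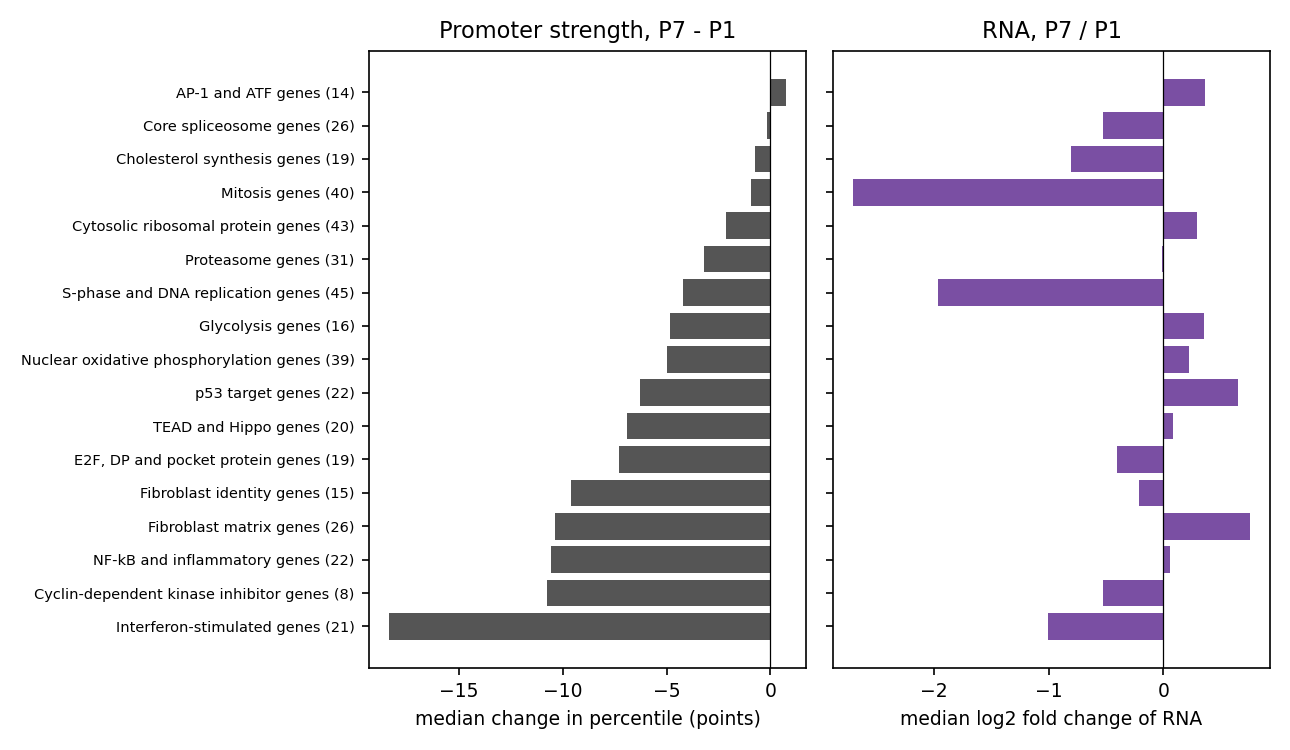
Median change in percentile of strength between P1 and P7 over the promoter regions of each list (left, number of regions in parentheses) and median log2 fold change of RNA over the tested genes of the same list (right). The mitosis list has a change of -0.92 points and a log2 fold change of -2.71, and the fibroblast matrix list has -10.4 points and 0.75.

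Of the 8 regions of cyclin-dependent kinase inhibitors, 3 (37.5%) were lower and none was higher, beside 29.1% lower and 5.05% higher among all promoter regions. Their median percentile was 88.3 at P1 and 77.6 at P7. By level, 42.0% of all promoter regions of mean percentile 60 to 80 were lower and 11.8% of those of 80 to 100. The region at Cdkn2c, p18INK4c, was at 73.6 to 83.1 at P1 and 36.1 to 51.2 at P7 (-38.4 points, limma adjusted p = 2.1e-05), and its RNA fell as well (log2 fold change -1.42, edgeR adjusted p = 5.5e-07). The region at Cdkn1a, the p53 target p21, was at 81.1, 90.8, 87.7 and 91.4 at P1 and 90.4, 85.2 and 92.0 at P7 (1.44 points, SE 2.25, limma adjusted p = 0.65), and the sign of this difference was negative when P1 replicate 1 was left out or when fold enrichment was ranked in place of -log10 p. The region covers a Cdkn1a start, but its median summit lay 1737 bases downstream of that start, so its rank need not describe the DNA at the start itself. Cdkn1a RNA went from 235 ± 20.5 to 680 ± 33.1 CPM (SD, n = 4, log2 fold change 1.53, edgeR adjusted p = 3.9e-10). Of 19 regions of E2F, DP and pocket protein genes, 7 (36.8%) were lower and none higher, and their median percentile was 91.5 at P1 and 84.2 at P7. The region at Tfdp1, the dimer partner of E2F factors, was at 59.0 to 69.3 at P1 and 24.1 to 42.9 at P7 (-31.7 points, limma adjusted p = 0.0012), and that at E2f4 was at 82.2 to 86.2 and 80.1 to 88.3.

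The regions at the p19ARF and p16INK4a starts of Cdkn2a moved apart. The region at the p19ARF start (chr4:89294261-89295988) was at 87.8, 86.5, 92.7 and 88.2 at P1, 84.9, 81.7 and 89.6 at P3, 78.1, 77.2 and 88.0 in the P5 samples, and 72.8, 61.4 and 60.8 at P7. Every P7 sample was below every other sample, and the change from P1 was -23.8 points (SE 3.30, limma adjusted p = 4.9e-05). The region at the p16INK4a start (chr4:89281958-89283276) was at 20.8, 28.9, 25.8 and 31.0 at P1, 62.8, 44.8 and 39.8 at P3, 74.2, 62.1 and 76.8 in the P5 samples, and 66.2, 62.5 and 81.5 at P7. All P1 samples were below all later samples, the change was 43.5 points (SE 7.05, limma adjusted p = 0.00018), and the covered width went from 526 to 780 bases to 1072 to 1222 bases (log2 fold change 1.11, limma adjusted p = 0.0022). Cdkn2a RNA was 8.06 ± 1.17, 21.4 ± 3.89, 101 ± 45.9 and 224 ± 36.5 CPM at the 4 passages (SD, n = 4, log2 fold change from P1 to P7 4.79, edgeR adjusted p = 1.3e-11). The counts are per gene and cannot separate the products.

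**Figure D4:**
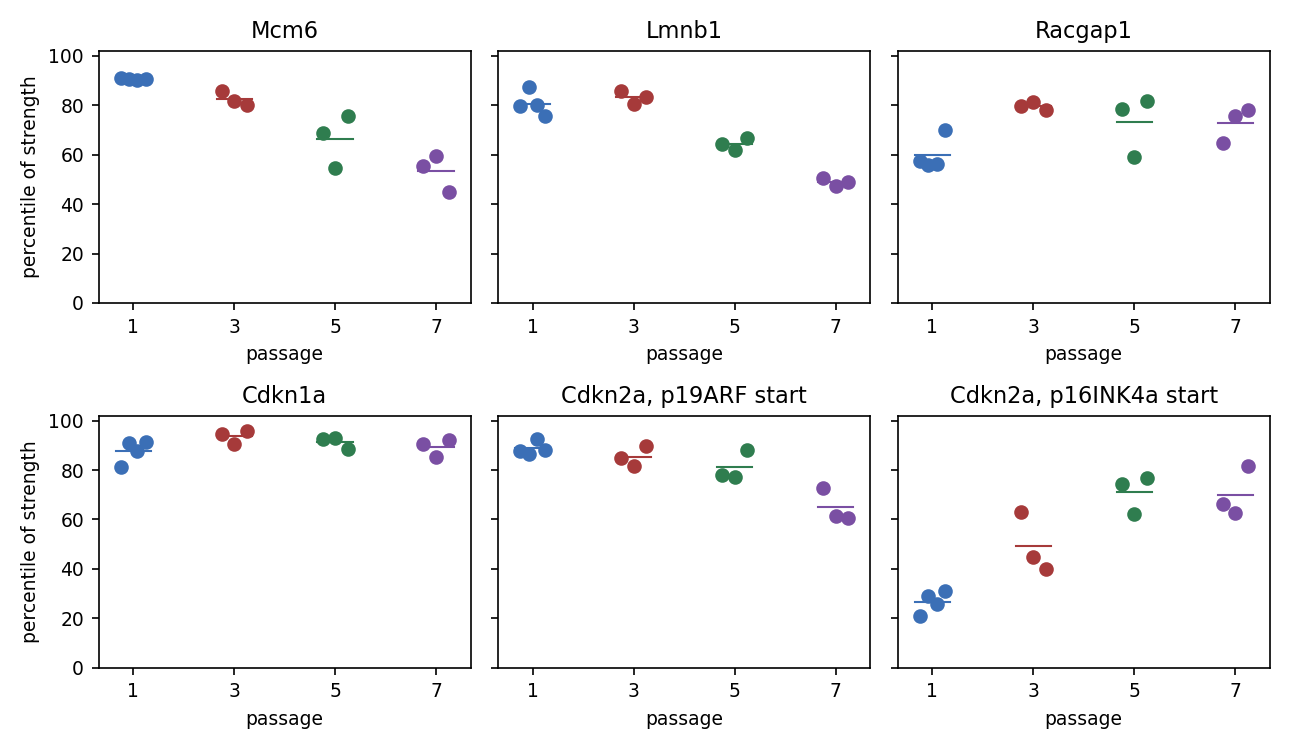
Percentile of strength of 6 promoter regions in each of the 13 ATAC-seq samples by passage; points are samples and lines are passage means. Mcm6, Lmnb1 and the p19ARF start of Cdkn2a were lower at P7 than at P1, the p16INK4a start was higher, and Racgap1 and Cdkn1a were not called. The median summit of the Cdkn1a region lay 1737 bases downstream of the start.

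Interferon-stimulated genes had a more negative median change from P1 than all promoter regions together. Of the 21 regions of interferon-stimulated genes, 12 (57.1%) were lower and none was higher between P1 and P7, beside 29.1% and 5.05% of all promoter regions, with a median of -18.4 points against -5.22 points. The median percentile of these 21 regions was 82.9 at P1 and 68.6 at P7. Among all promoter regions of mean percentile 60 to 80, 42.0% were lower, with a median of -9.43 points. The RNA of 12 of 24 genes was lower and of 1 higher. Against P3, 4 of the 21 regions were lower, a share under the 21.4% of all promoter regions, and the median was -7.26 points. The region at Ifih1, the sensor of double-stranded RNA, was at 71.2 to 80.1 at P1, 55.6 to 62.7 at P3 and 31.6 to 40.9 at P7 (-40.9 points, limma adjusted p = 0.00011), and its RNA went from 20.9 ± 2.30 to 8.68 ± 0.969 CPM (SD, n = 4, log2 fold change -1.26, edgeR adjusted p = 4.9e-07). Of the 22 regions of NF-kB and inflammatory genes, 10 (45.5%) were lower and none higher (median -10.5 points), and RNA was lower in 3 and higher in 3 of 23 genes. The median percentile of these NF-kB and inflammatory regions was 78.2 at P1 and 61.3 at P7. The region at Nfkb1 itself was at 29.4 to 48.9 at P1 and 10.3 to 15.9 at P7 (-29.5 points, limma adjusted p = 0.00078), with RNA of 79.1 ± 4.04 and 78.1 ± 1.66 CPM. Of the 22 regions of p53 target genes, 7 (31.8%) were lower, beside 29.1% of all promoter regions and 11.8% of those of mean percentile 80 to 100. The median percentile of the p53 target regions was 88.8 at P1 and 81.5 at P7. The RNA of 6 of the 22 genes was higher and of none lower. At Zmat3, an RNA-binding p53 target, the region went from 40 to 53.4 at P1 to 4.20 to 21 at P7 (-31.3 points, limma adjusted p = 0.0019), and RNA from 116 ± 7.65 to 181 ± 17.2 CPM (log2 fold change 0.64, edgeR adjusted p = 1.3e-06).

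The AP-1 and TEAD families hold factors that the study followed. Of 14 AP-1 and ATF regions, 1 (7.14%) was lower between P1 and P7, beside 11.8% of all promoter regions of mean percentile 80 to 100. The median change of the 14 was 0.74 points, and 3 were lower from P3 (median -4.69 points). The lower region was at Atf5 (-13.5 points, limma adjusted p = 0.0023), whose RNA went from 252 ± 10.6 to 454 ± 47.8 CPM (SD, n = 4, log2 fold change 0.85, edgeR adjusted p = 9.2e-05). The region at Atf3, a stress-induced factor that the study perturbed, was at 96.3 to 97.7 at P1 and 98.9 to 99.4 at P7. Of 20 TEAD and Hippo regions, 6 (30%, beside 29.1% of all promoter regions and 42.0% of those of mean percentile 60 to 80) were lower and none was higher from P1 (median -6.91 points), and 4 were lower from P3 (median -10.7 points). The difference between the 2 families was not tested. The region at Mob1b, a kinase activator of the Hippo pathway, was at 84.3 to 90.4 at P1 and 56.4 to 68.4 at P7 (-27.0 points, limma adjusted p = 7.7e-05), and that at Tead1 was at 55.4 to 67.1 at P1, 66.9 to 78.2 at P3, 49.2 to 71.6 at P5 and 68.4 to 77.5 at P7. Tead1 was not called from P1 to P7 (13.4 points, limma adjusted p = 0.068) or from P3 to P7 (1.43 points, limma adjusted p = 0.89).

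Matrix genes had more higher than lower calls in RNA. Of their 26 regions, 10 (38.5%) were lower and none was higher between P1 and P7 (median -10.4 points), beside 29.1% and 5.05% of all promoter regions, and 8 were lower from P3 (median -10.4 points). The median percentile of the matrix regions was 78.2 at P1 and 66.6 at P7. Among all promoter regions of mean percentile 60 to 80, 42.0% were lower between P1 and P7, with a median of -9.43 points. The RNA of 14 of 30 matrix genes was higher and of 6 lower, with a median log2 fold change of 0.75. Mmp3, a stromelysin, had a region at 70 to 74.2 at P1, 43.9 to 48.3 at P3 and 15.6 to 27.4 at P7 (-51.9 points, limma adjusted p = 7.4e-05), and RNA of 792 ± 202 CPM at P1, 50 ± 11.4 at P3 and 53.5 ± 9.36 at P7 (SD, n = 4). Col12a1, a fibril-associated collagen, had a region at 80.1 to 85.1 at P1 and 87.5 to 90.7 at P7 (7.33 points, under the minimum of 10), and RNA of 2601 ± 177 and 5489 ± 1202 CPM (SD, n = 4, log2 fold change 1.08, edgeR adjusted p = 1.8e-06). Of 15 regions of fibroblast identity genes (median percentile 70.1 at P1 and 65.8 at P7), 7 (46.7%) were lower and 1 higher. The region at Twist1, a mesenchymal factor, was at 68.0 to 73.6 at P1 and 19.7 to 26.6 at P7 (-46.9 points, limma adjusted p = 3.2e-05), and the higher region was at Runx2, a factor of the bone lineage (15.1 points, limma adjusted p = 0.016).

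Housekeeping lists had at most 10 lower and 2 higher regions each, beside 29.1% lower and 5.05% higher among all promoter regions. By level, 42.0% of all promoter regions of mean percentile 60 to 80 were lower and 11.8% of those of 80 to 100. Among cytosolic ribosomal protein genes, 4 of 43 regions (9.30%) were lower and 2 higher (median -2.12 points), and Rps18 was among the higher, from 37.9 to 54.1 at P1 to 67.0 to 73.3 at P7 (25.7 points, limma adjusted p = 0.011). Of 26 core spliceosome regions, 2 (7.69%) were lower and 1 higher (median -0.15 points). Of 31 proteasome regions, 4 (12.9%) were lower (median -3.21 points), and of 39 regions of oxidative phosphorylation genes 10 (25.6%) were lower (median -4.98 points). None of the 19 regions of cholesterol synthesis genes was called in strength, and their median percentile was 97.2 at P1 and 95.5 at P7, while the RNA of 6 of the 19 genes was lower, beside 13.3% of all genes tested. Of 16 glycolysis regions, 4 (25%) were lower (median -4.83 points), with the largest fall at Gpi1 (-25.9 points, limma adjusted p = 1.6e-05).

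Promoters of the other cell types were in the set in differing shares. A region was present in every sample for 1 of 12 keratinocyte, 6 of 16 macrophage, 4 of 12 skeletal muscle and 6 of 12 endothelial genes, compared with 15 of 16 fibroblast identity genes and 65.0% of all protein-coding genes. Of the 6 endothelial regions 4 were lower and none was higher, beside 29.1% lower and 5.05% higher among all promoter regions. The region at Kdr, a receptor of vascular endothelial growth factor, went from 50.1 to 64.1 at P1 to 1.91 to 16.5 at P7 (-47.5 points, limma adjusted p = 0.00011), with RNA of 45.6 ± 1.86 and 5.36 ± 1.55 CPM. The summed RNA of the 12 endothelial genes was 277 to 313 CPM at P1 and 132 to 185 CPM at P7. By gene, RNA was lower for 11 of the 12 and higher for 1, beside 13.3% lower and 8.1% higher among all genes tested. The median log2 fold change of the 12 was -4.99. Of the 6 macrophage regions, 2 were higher and 1 was lower, beside 5.05% and 29.1% of all promoter regions. In RNA, 15 of 16 macrophage genes were lower, beside 13.3% of all genes tested. The region at Lyz2, lysozyme, went from 38.4 to 55.3 at P1 to 75.1 to 80.9 at P7 (30.2 points, limma adjusted p = 0.00063), and its RNA from 282 ± 51.7 to 16.7 ± 6.67 CPM (SD, n = 4, log2 fold change -4.08, edgeR adjusted p = 7.2e-11). Of H2-Eb1, a class II antigen-presenting molecule, 2 regions were higher (25.2 and 22.9 points, limma adjusted p = 0.00026 and 0.011), and its RNA went from 2.17 ± 0.476 to 0.476 ± 0.157 CPM. C1qa and Ccl12, immune genes that the study named, had no region in the set, since that of C1qa had a peak in 4 samples (none at P1 or P3, 1 at P5 and 3 at P7) and the most frequent of Ccl12 in 6 (1 at P3, 3 at P5, 2 at P7 and none at P1).

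Over all genes, promoter strength and RNA were loosely related. RNA-seq counts were tested for 12500 genes with a promoter region in the set, 93.0% of all tested genes, and the counting did not use strand, so the RNA of overlapping or divergent genes is uncertain. Between P1 and P7, 1392 of the 12500 (11.1%) were lower and 948 (7.58%) higher, beside 13.3% and 8.1% of all genes tested. Of the 942 tested genes without such a region, 42.5% were lower and 15% higher. Only 9.42% of the counted genes without a region passed the filter on low counts, against 83.4% of those with one. A gene can pass on the libraries of a single passage where its RNA is high, so these shares are not a like comparison. Between P3 and P7, 801 (6.41%) were lower and 499 (3.99%) higher, beside 7.41% and 4.44% of all genes tested. The single steps had 553 lower and 266 higher genes from P1 to P3 (beside 6.58% and 2.4%), 299 and 91 from P3 to P5 (beside 3.05% and 0.841%) and 270 and 115 from P5 to P7 (beside 2.28% and 1.19%). Of the 3766 genes whose region was lower, RNA was lower in 15.1%, higher in 6.90% and neither in 78.0%. Of the 277 genes whose region was higher, RNA was lower in 12.3% and higher in 18.4%. From the side of RNA, the region was lower for 40.9% of genes with lower RNA, 28.9% of genes called neither and 27.4% of genes with higher RNA. The change in strength and the log2 fold change of RNA had a Pearson r of 0.13 and a Spearman rho of 0.10 across the 12500 genes, and 0.09 and 0.08 between P3 and P7. These are correlations across genes, which are not independent replicates and which share samples and CG content.

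By level of RNA at P1, the median change in strength was -8.03 points for regions of genes under 5 CPM, -6.95 from 5 to 20 CPM, -5.20 from 20 to 100 CPM and -4.17 at 100 CPM or more, and between P3 and P7 these medians were -6.74, -6.29, -5.59 and -5.42 points. The 1736 regions with a protein-coding start but no gene tested in RNA had a median of -7.03 points. Between P3 and P7 their median was -5.11 points, so the order by RNA level did not extend to them. Among genes lower in both strength and RNA, the largest RNA changes were at Myh1, a myosin of muscle (log2 fold change -6.34), Slco4a1, an organic anion transporter (-5.01), Adam8 (-4.84) and Lcp1, plastin of leukocytes (-4.79). The regions of Slco4a1 and Lcp1 went from 90.1 to 96.2 to 31.3 to 64.7, and from 62.9 to 72.3 to 17.1 to 28.8. Among genes higher in both, these were Cnn1, calponin of smooth muscle (3.87), Hoxc13 (1.96), Pcdhga7 (1.89) and Podn, a matrix proteoglycan (1.84). The region of Cnn1 was at 20 to 41.1 at P1, 41.9 to 74.5 at P3, 34.0 to 57.7 for P5 and 54.3 to 68.0 at P7, and its RNA at 13.7 ± 2.86, 78.9 ± 14.5, 80 ± 6.77 and 201 ± 51.0 CPM (SD, n = 4).

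Different regions on or near the starts of 1 gene could move apart, as at Cdkn2a. Of 2201 protein-coding genes with 2 or more regions in the set, 122 had a region called lower and another called higher between P1 and P7, compared with 161 genes whose regions were all lower, 8 whose regions were all higher and 894 with none called. The widest gap was at Map2, with changes of -62.2 and 63.3 points, followed by Trim11 (-39.7 and 52.8) and Sugp2 (-22.3 and 66.0). The rising regions of Map2 and Sugp2 lay 123 and 991 bases from a start given only by a computed transcript model. Unlike those of Cdkn2a, they covered no start and need not be other promoters of the gene. These genes were picked after their values were seen.

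Promoters on chromosome X, also picked after the values were seen, and therefore given without a test, had a more negative median change than those on any autosome. The 513 regions had a median change of -11.2 points between P1 and P7 and 43.9% were called lower, while the medians of the autosomes ranged from -7.26 points on chromosome 18 to -1.80 points on chromosome 11. The median percentile of the X-linked regions, less that of the autosomal ones, was -6.29, -5.31, -3.55 and -5.27 points at P1, -8.45, -6.99 and -7.58 at P3, -9.81, -9.44 and -9.92 in the P5 samples, and -13.5, -14.6 and -14.9 at P7. No passage overlapped the next. For distal regions the gap was -7.18 to -9.10 points at P1 and -9.54 to -10.5 points at P7. X-linked promoters were lower in each band of mean percentile, with medians of -22.4 against -12.5 points at 40 to 60 and -3.94 against -1.33 points at 80 to 100. The median number of CG was 16 on X and 17 on the autosomes. The RNA of 398 X-linked genes with a region in the set had a median log2 fold change of -0.12 between P1 and P7. The region of Ndufa1, an X-linked subunit of respiratory complex I, was at 30.7 to 42.5 at P1 and 3.41 to 13.1 at P7 (-29.8 points, limma adjusted p = 0.00046), while its RNA was 21.1 ± 0.671 and 29.5 ± 7.92 CPM (SD, n = 4, edgeR adjusted p = 0.069).

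**Figure D5:**
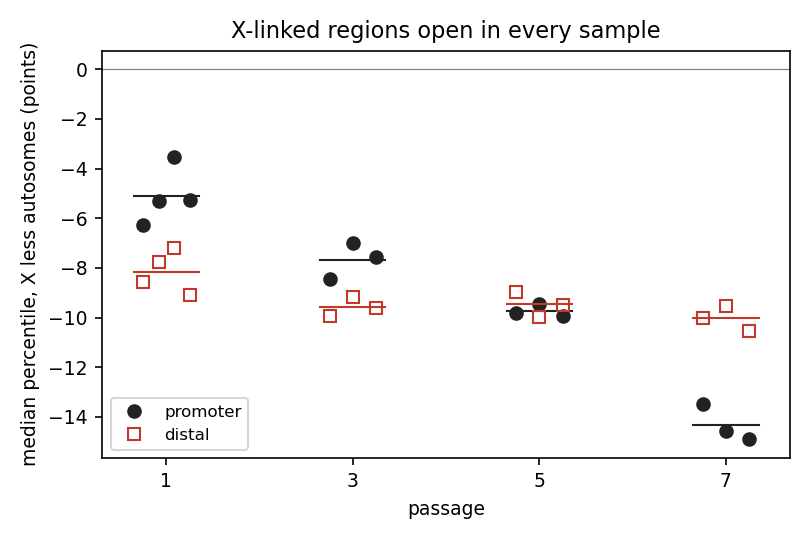
Median percentile of strength of X-linked regions less that of autosomal regions (points) in each ATAC-seq sample by passage, for promoter (black) and distal (red) regions present in every sample; lines are passage means. The promoter gap lay between -6.29 and -3.55 points at P1 and between -14.9 and -13.5 points at P7, while the distal gap lay between -10.5 and -7.18 points throughout.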

How the data were processed

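The members, gene lists and sequence words were chosen with earlier results of these data known. ATAC-seq peaks were called per sample by the authors with MACS2 in the ENCODE pipeline, after Bowtie2 alignment to mm10 and removal of duplicates. The deposited peak files give a fold enrichment and a -log10 p for each peak, and both were used as the authors wrote them, without normalization between samples. RNA-seq counts per gene were made by the authors with HISAT2 and HTSeq, without strand, and were used as deposited (13430229 to 15725823 per library). Fold enrichment served only as an alternative to -log10 p, and no read depth is held by the peak files, so no interval for counting error is given.

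Regions were merged over the 13 samples, and the covered bases and the best -log10 p (column 8) of each region were taken per sample. Percentiles among the 94647 shared regions, and log2 covered bases less the sample median, were fitted with limma 3.58.1 (empirical Bayes with a mean trend, passage as the only term, 13 samples), with Benjamini-Hochberg adjustment over all 94647 regions. Counts of 16 libraries were fitted with edgeR 4.0.16 (filterByExpr, TMM, quasi-likelihood test), and a call needed an adjusted p under 0.05 and a fold over 2. DESeq2 1.42.0 was an alternative. The programs were run in R 4.3.3 and Python 3.11.15 and were tested on simulated data. Start sites were the 5′ ends of RefSeq transcripts on GRCm38.p6. Of the 24984 genes in the count tables, 24463 matched a RefSeq symbol and 419 an older symbol.

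Named were the 6 protein-coding promoter regions with the largest fall and the 6 with the largest rise from P1 to P7 among those called without overlap, the 4 with the most narrowing and the 4 with the most widening, the 5 strongest, the highest and lowest change of each list, 9 genes that the study names, and the 4 in each direction with the largest RNA change among genes called the same way in strength and RNA (mean log2 CPM of at least 3). A gene that this rule names is not reported here. RNA of cells with altered Atf3 and methylation data were not used here, and the -log10 q served only for a stricter peak list. Alternatives were other scales, distances, start sites, peak thresholds, filters, the replicate number as a block, and each sample left out.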

Additional observations from a re-analysis of the deposited data

Results flagged for a closer look

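Among 260 groups of 4 values tested, 23 (8.85%) had 1 sample whose gap to the nearest other sample was too large a share of the range of the group by Dixon's test, where chance gives about 1 in 20 groups. Of the percentiles of strength at P1, the outlying sample was the lowest of 4 for Cdkn2c (73.6), Jakmip2 (67.1), Psmb3 (79.8) and Sesn2 (88.4). It was the highest for Col12a1 (85.1), Fam227a (8.84), Nav1 (6.54), Racgap1 (69.8) and Zfp869 (99.99). In covered bases at P1, the outlying sample was the highest, with 510 for Slc12a8 and 237 for Tex43.

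In RNA, the outlying library at P7 was the highest for Tmem132c (1.04 CPM), Map2 (4.97 CPM) and Rpl5 (799 CPM) and the lowest for Tead1 (279 CPM) and Podn (28.6 CPM). At P1 it was the highest for Map2 (5.14 CPM), Racgap1 (140 CPM), Cdkn2d (24.4 CPM) and Nfkb1 (85.1 CPM). At P3 it was the highest for Cdkn2d (15.8 CPM) and Adam8 (4.05 CPM), and at P5 for Ifi35 (32.2 CPM).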

How the results depend on the processing

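The number of promoter regions was 14982 with 1 start per gene, 16508 within 500 bases and 21554 within 2000 bases. With starts of curated transcripts only, an alternative chosen after seeing the data, it was 14664. Without 1 sample it was 18250 to 18612. With percentiles among all regions that had a peak, 2188 regions were lower between P1 and P7, and 630 lower and 1340 higher between P3 and P7. Higher regions between P1 and P7 numbered 1414 with no minimum change and 1517 with normal scores, and 564 between P3 and P7 with normal scores. Fitted on the 2 passages alone, 2469 were lower in strength, 51 narrower and 13 wider between P3 and P7. Widths without centring gave 4069 narrower and 152 wider between P1 and P7, and 50 wider between P3 and P7. A stricter peak list (-log10 q of 5 or more) gave 367 narrower and 72 wider between P3 and P7. A minimum of 10 counts in every library left 329 genes higher in RNA between P3 and P7. Apart from the replicate block and samples left out, given next, the other alternatives kept the counts of calls within 1.5 times. The causes were not tested.

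Leaving out 1 sample gave 910 to 1991 narrower and 179 to 563 wider regions between P1 and P7. Between P3 and P7 it gave 2512 to 3963 lower and 242 to 385 higher in strength, 260 to 772 narrower and 30 to 116 wider.

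Same-numbered ATAC-seq samples had correlations of deviations from -0.084 to 0.26 and RNA-seq libraries from -0.26 to 0.28, so not every pair was over 0.1 and the numbers were not taken to pair the samples. Among 12 ATAC-seq samples 4, and among 16 libraries 10, correlated best with their own number. The replicate block gave 1139 narrower and 270 wider regions between P1 and P7, and 381 and 60 between P3 and P7. It gave 4801 lower and 870 higher in strength between P1 and P7.

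By fold enrichment in place of -log10 p, the change in percentile turned to -14.6 at Cdkn1a, -2.28 at Cdkn2d, -1.23 at Col12a1, -6.48 at E2f4, 1.98 at Hjurp, -2.05 at Mymk, -2.67 at Narf and -7.74 at Sesn2. Without 1 sample it ranged from -0.78 to 3.43 at Cdkn1a, -1.87 to 2.22 at E2f4, -4.81 to 9.01 at Mymk and -0.0046 to 0.012 at Narf, none of them called. The RNA log2 fold change of Atp10a ranged from -0.21 to 0.15, and that of Nfkb1 was 0.0071 on the 2 passages alone and -0.031 to 0.023 without 1 library. Of the other values of named genes, 32 were gained and 33 lost as calls of strength, and 2 and 11 as calls of RNA.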
